A study of Marchantia polymorpha with 6 samples.

Results

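MpPIN4 (Mp5g05150), an auxin efflux carrier, and MpAUX1 (Mp1g29330), an auxin influx carrier, are 2 of the 19472 genes counted in thalli of Marchantia polymorpha, a liverwort whose thallus is a flat, branching sheet of green tissue. They were taken as these 2 gene IDs, and were chosen by their read counts in arsenite and control libraries, which were already known. Their difference between treatments is therefore described and not tested. RNA sequencing of polyadenylated RNA covered 3 samples grown with 2.5 µM sodium arsenite, in which arsenic is trivalent, and 3 control samples without it. All 6 were thalli of the genotype labelled Cam1, grown at 21 °C on half-strength Gamborg medium, and the labels give the arsenite as the only difference. Plant age and length of exposure are not stated. Nothing states that the 3 samples of a group came from separate cultures, so p-values measure the spread between these samples, which may be technical.

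Auxin is a growth hormone that plants move from cell to cell. Carriers of the AUX1 family bring it into the cell together with protons, and PIN proteins let it out. PINs often do so on 1 side of the cell only, which gives the flow a direction. Whether MpPIN4 does is not shown by these data. In Marchantia auxin is made near the apical notch and acts on thallus growth, rhizoids, gemma cups and the dormancy of gemmae. In Arabidopsis, mutants of carriers of both families respond abnormally to arsenite. Protein and promoter sequences were not used here, and since the gene models behind the counts are not given, levels are not compared between genes of different length.

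Fewer reads fell on both carriers in thalli grown with arsenite, and the difference was larger for the efflux carrier. MpPIN4 had 64.9, 80.5 and 56.6 CPM (reads per 1000000 on tested genes, after TMM scaling of the libraries) in arsenite replicates 1, 2 and 3, against 176, 166 and 160 CPM in control replicates 1, 2 and 3. All 3 arsenite samples lay below all 3 controls, and the lowest control was 1.99 times the highest arsenite sample. The means were 67.3 ± 12.15 CPM with arsenite and 168 ± 7.99 CPM in controls (SD, n = 3 each), which gives a log2 change of -1.32 ± 0.14 (SE), arsenite over control, or 2.49-fold lower. Among the 13544 genes with enough reads to test, 2.27% had a lower log2 change.

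MpAUX1 had 129, 138 and 131 CPM in arsenite replicates 1, 2 and 3, against 196, 213 and 221 CPM in control replicates 1, 2 and 3. Here too the groups were apart, the lowest control being 1.42 times the highest arsenite sample. The means were 133 ± 4.77 CPM with arsenite and 210 ± 12.6 CPM in controls (SD, n = 3 each), a log2 change of -0.66 ± 0.09 (SE), or 1.58-fold lower. A lower log2 change was found in 6.68% of the tested genes. Of all tested genes, 28.2% had groups that did not overlap. Both transcripts were well covered, with 1472 to 8592 reads per library on MpPIN4 and 3407 to 9583 on MpAUX1. Counting error at the lowest of these was 2.61% and 1.71%, which is less than the spread between arsenite replicates (coefficients of variation 18.05% for MpPIN4 and 3.59% for MpAUX1).

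**Figure D1:**
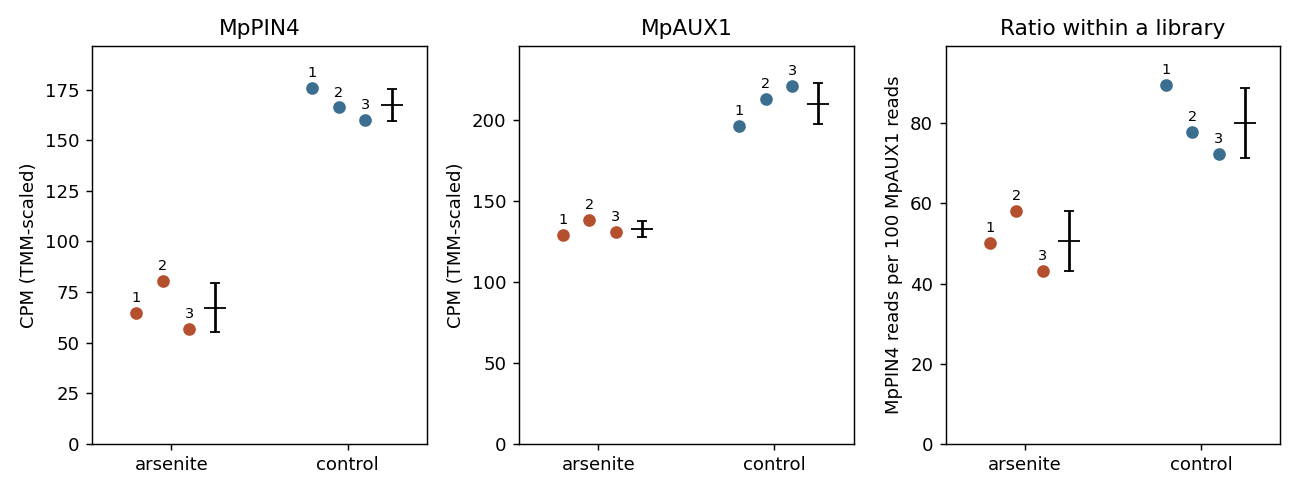
Level of MpPIN4 (left) and MpAUX1 (middle) in CPM, and reads of MpPIN4 per 100 reads of MpAUX1 (right), in each arsenite and control library. Numbers are replicates, and black marks give the mean and SD of 3 libraries. In all 3 panels every arsenite library lies below every control, and MpPIN4 is most spread among the arsenite libraries.

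The level of MpPIN4 relative to MpAUX1 was also lower with arsenite. Each library held 50.5 ± 7.53 reads of MpPIN4 per 100 reads of MpAUX1 with arsenite and 80.03 ± 8.78 in controls (SD, n = 3 each). This ratio of 2 genes within 1 library does not depend on how libraries are scaled. On the log2 scale it was -0.99, -0.78 and -1.21 in arsenite replicates 1, 2 and 3, against -0.16, -0.36 and -0.46 in control replicates 1, 2 and 3, with no overlap. The difference of the mean log2 ratios was -0.67. Among arsenite libraries both genes were highest in replicate 2. Among controls MpPIN4 was highest in replicate 1, where MpAUX1 was lowest.

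Marchantia has 4 other genes with a PIN symbol, and 2 of the 3 with enough reads had higher means with arsenite, opposite to MpPIN4. None passed the test over all genes (edgeR, quasi-likelihood, Benjamini-Hochberg adjusted p under 0.05, used throughout), under which 4.18% of the 13544 tested genes passed, 2.04% higher and 2.14% lower. MpPIN3 (Mp6g07950) had 34.8, 71.45 and 66.6 CPM in arsenite replicates 1, 2 and 3, against 22.2, 25.4 and 29.1 CPM in control replicates 1, 2 and 3. Every arsenite library was above every control, with replicate 1 much closer to the controls than replicates 2 and 3. Its log2 change was 1.17 ± 0.27 (SE, adjusted p = 0.0628, 95% interval 0.53 to 1.81). Without arsenite replicate 1 it was 1.45 and passed (adjusted p = 0.0172), while in the 5 fits without another library it was 0.99 to 1.28 and did not pass (adjusted p = 0.0993 to 0.199).

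MpPIN2 (Mp5g05140) had 7.12, 9.985 and 10.7 CPM in arsenite replicates 1, 2 and 3, against 5.92, 4.17 and 4.11 CPM in control replicates 1, 2 and 3. These groups did not overlap either, although arsenite replicate 1 and control replicate 1 were close. The log2 change was 0.97 ± 0.24 (SE, adjusted p = 0.0756). DESeq2, another count test, called both MpPIN3 (adjusted p = 0.000967) and MpPIN2 (adjusted p = 0.00487) higher, while voom called neither. Both had a raw p below 0.05 in edgeR's test. Of all tested genes DESeq2 called 11.8% and voom 3.92%, and 21.1% had such a raw p.

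MpPIN1 (Mp3g21660), the PIN of Marchantia with the long central loop known from polar PINs of flowering plants, had 365 ± 29.6 CPM with arsenite and 411 ± 46.8 CPM in controls (SD, n = 3 each). The groups overlapped, and the log2 change was -0.17 ± 0.13 (SE, adjusted p = 0.473), with a 95% interval from -0.47 to 0.12. MpPIN5 (Mp5g05180) held 13 reads over all 6 libraries, 9 of them in arsenite replicate 1, and was too low to test. Of all reads on the 5 PIN genes, not corrected for length, MpPIN4 received 13.5 ± 1.77% with arsenite and 27.65 ± 3.26% in controls (SD, n = 3 each). Reads summed over the 5 genes came to 499.5 ± 56.9 CPM with arsenite and 609 ± 41.2 CPM in controls, a log2 ratio of -0.29. How reads with several placements were counted is not given, so a share of reads could have been assigned between similar PIN genes. Reads moved between PIN genes would leave the sum unchanged, but reads dropped or counted more than once would not. Neither was tested.

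**Figure D2:**
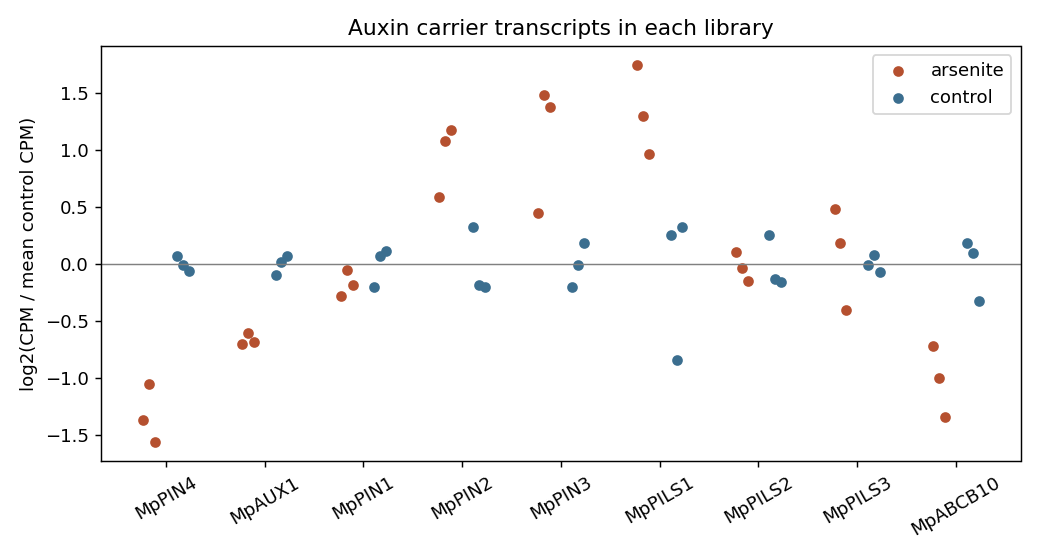
Level of MpPIN4, MpAUX1, MpABCB10 and the tested PIN and PILS genes in each library, as log2 of CPM over the mean control CPM. MpABCB10, which passed, is the only ABCB gene drawn. Of the 11 tested ABCB genes, 6 had a positive log2 change and 5 a negative log2 change. Points are 3 arsenite libraries (left of each pair) and 3 control libraries, replicates 1 to 3 from left to right. MpPIN4, MpAUX1 and MpABCB10 lie below 0 with arsenite, whereas MpPIN2, MpPIN3 and MpPILS1 lie above it and MpPIN1, MpPILS2 and MpPILS3 overlap with controls.

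MpPIN2, MpPIN4 and MpPIN5 lie close together on chromosome 5. In the order of genes of the MpTak2_v7.1 assembly, used only for names and neighbours, MpPIN2 is the gene directly before MpPIN4, and MpPIN5 is the third gene after it. MpPIN4 and MpPIN2 thus had fold changes of opposite sign as direct neighbours. Of the 10 nearest genes, 5 on each side, 8 could be tested and 0 passed with edgeR or voom. DESeq2 called 1, MpPIN2, and 2 had a raw p below 0.05 in edgeR's test, MpPIN2 and MpLEAL6, both higher with arsenite. MpLEAL6 was near the limit of detection, with 14 to 26 reads per arsenite library and 5 to 10 per control. The median log2 change of the 8 was 0.04. Around MpAUX1 on chromosome 1, 4 of the 10 nearest genes could be tested and 0 passed with edgeR or voom. DESeq2 called 1, Mp1g29350, which was also the 1 with a raw p below 0.05 in edgeR's test, and it was higher with arsenite (log2 change 1.62 ± 0.45, SE). This gene had few reads too, with 26 to 47 per arsenite library and 8 to 22 per control. Over all tested genes, DESeq2 called 11.8%, and 21.1% had a raw p below 0.05 in edgeR's test. In that assembly neither carrier gene overlaps any of these neighbours.

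**Figure D3:**
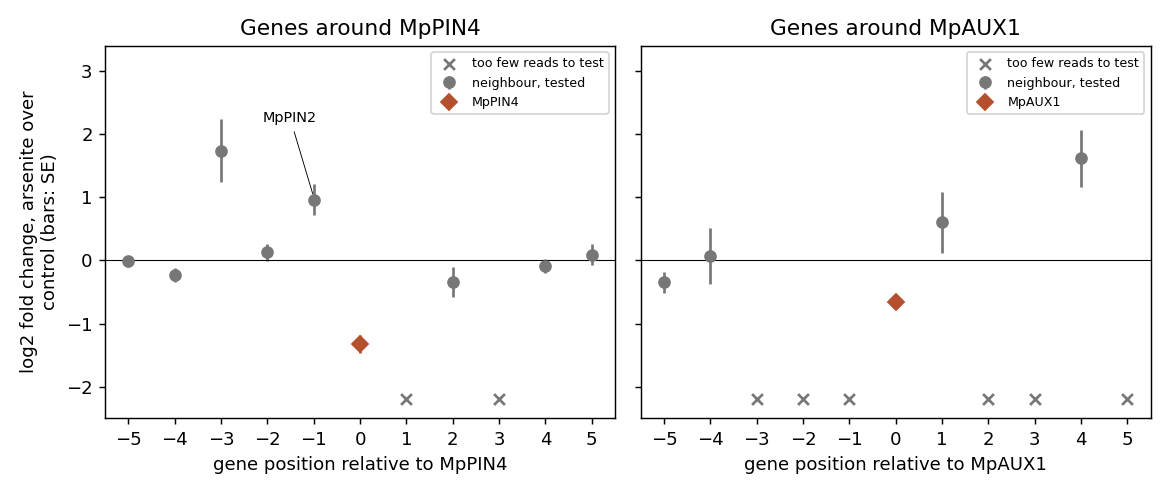
Log2 fold change, arsenite over control, of MpPIN4 (left) and MpAUX1 (right) and of the 5 genes on either side in chromosome order, with bars of 1 SE. Crosses mark genes with too few reads to test, and their height has no meaning. MpPIN4 is at -1.32 and MpAUX1 at -0.66, and both were chosen with these values known.

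In 2 other families that include auxin carriers, 1 of 14 tested genes passed, where 4.18% of all tested genes did. PILS proteins, relatives of PINs that in Arabidopsis hold auxin in the endoplasmic reticulum, had 0 of 3 tested genes that passed with edgeR, DESeq2 or voom. MpPILS2 had 130 ± 11.4 CPM with arsenite and 132 ± 21.7 CPM in controls (SD, n = 3 each; log2 change -0.02, 95% interval -0.35 to 0.31, adjusted p = 0.946). MpPILS3 had 202 ± 59.5 CPM with arsenite and 184 ± 9.22 CPM in controls (log2 change 0.13, adjusted p = 0.757). MpPILS1 was near the limit of detection, with 14 to 29 reads per arsenite library and 4 to 16 per control (log2 change 1.33 ± 0.43, SE, adjusted p = 0.136), and it was the 1 PILS gene with a raw p below 0.05.

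ABCB transporters form a broad family, of which some members export auxin in Arabidopsis. Of 11 tested, 1 fell, 0 rose and 10 did not pass, where 2.14% of all tested genes fell and 2.04% rose. MpABCB10 (Mp7g04390) had 177, 146 and 115 CPM in arsenite replicates 1, 2 and 3, against 333, 313 and 233 CPM in control replicates 1, 2 and 3. All arsenite libraries were below all controls, with a wide spread in both groups. Its log2 change was -1.003 ± 0.198 (SE, adjusted p = 0.0412). The call ended when any 1 library other than arsenite replicate 1 was left out, with log2 changes from -1.14 to -0.85 in those 5 fits. MpABCB8 had the other raw p below 0.05 (log2 change 0.60 ± 0.26, SE, adjusted p = 0.236), and its groups overlapped. The remaining 9 had log2 changes from -0.20 (MpABCB3) to 0.75 (MpABCB1), and whether any of the 11 carries auxin in Marchantia is not shown by these data.

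Neither of the 2 tested genes that make auxin passed, where 4.18% of all tested genes did. MpTAA, the aminotransferase of the first step from tryptophan, had 13.35 ± 2.61 CPM with arsenite and 15.9 ± 3.26 CPM in controls (SD, n = 3 each; log2 change -0.25, 95% interval -0.75 to 0.26, adjusted p = 0.553). MpYUC2, the monooxygenase of the second step, had 15.4 ± 5.51 CPM with arsenite and 18.2 ± 2.29 CPM in controls (log2 change -0.23, 95% interval -0.89 to 0.42, adjusted p = 0.672). Neither was called by DESeq2 or voom or had a raw p below 0.05. In MpYUC2, arsenite replicate 3 stood at 9.07 CPM and replicates 1 and 2 at 18.7 and 18.6 CPM. Of the other YUC genes, MpYUC1 had 1 read in 1 library and MpYUC3, MpYUC4 and MpYUC5 had 0 reads in all 6, which allows a level of up to 0.115 CPM, the worth of 3 reads in the shallowest library, for counting error only.

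None of 3 genes that inactivate or store auxin passed, where 4.18% of all tested genes did. MpGH3A, of the enzymes that couple auxin to amino acids in other plants, had 85.7 ± 14.4 CPM with arsenite and 97.4 ± 23.3 CPM in controls (SD, n = 3 each; log2 change -0.18, adjusted p = 0.644). MpGH3B (log2 change 0.04, adjusted p = 0.956) and MpILR, named for hydrolases that free auxin from such conjugates (log2 change -0.14, adjusted p = 0.611), lay near 0. None of the 3 had a raw p below 0.05 or passed with DESeq2 or voom.

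Perception and response to auxin had 0 of 8 tested genes that passed with edgeR, DESeq2 or voom, and 0 with a raw p below 0.05. These shares were 4.18%, 11.8%, 3.92% and 21.1% over all tested genes. MpARF2, the transcription factor that represses auxin targets, had 320 ± 21.9 CPM with arsenite and 374 ± 22.3 CPM in controls (SD, n = 3 each; log2 change -0.23 ± 0.10, SE, adjusted p = 0.271). MpIAA, the repressor that auxin destabilises, had a log2 change of -0.26 (95% interval -0.58 to 0.05, adjusted p = 0.311). MpTIR1, the auxin receptor, had 199 ± 23.2 CPM with arsenite and 225 ± 2.42 CPM in controls (log2 change -0.18, adjusted p = 0.41). MpARF1, the activator that opposes MpARF2, had 182 ± 12.8 CPM with arsenite and 183 ± 11.7 CPM in controls (log2 change -0.01, 95% interval -0.24 to 0.23). Log2 fold changes of the 8 ran from -0.26 to 0.22, with a median of -0.12. MpPP2A_A, the scaffold of the phosphatase that acts on PINs in Arabidopsis, had a log2 change of 0.14 (adjusted p = 0.431).

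Among 11 tested regulators of development that act with or downstream of auxin, 0 passed with edgeR (4.18% of all tested genes) or voom (3.92%). A raw p below 0.05 (21.1% of all tested genes) was found for 1 gene. That gene was MpRSL1, which starts rhizoids and other surface cells, and DESeq2, which called 11.8% of all tested genes, called it higher. It had 19.5, 19.9 and 22.8 CPM in arsenite replicates 1, 2 and 3, against 13.6, 12.1 and 14.8 CPM in control replicates 1, 2 and 3. The groups did not overlap, with a log2 change of 0.62 ± 0.14 (SE, adjusted p = 0.0533). MpSHI had a log2 change of -0.42 (adjusted p = 0.269) and MpRR-MYB6 of -0.17 (adjusted p = 0.394). MpLAXR (MpERF20), a factor of regeneration that acts when auxin is low, had 3.37 ± 0.88 CPM with arsenite and 4.68 ± 1.41 CPM in controls (log2 change -0.48, adjusted p = 0.411).

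**Figure D4:**
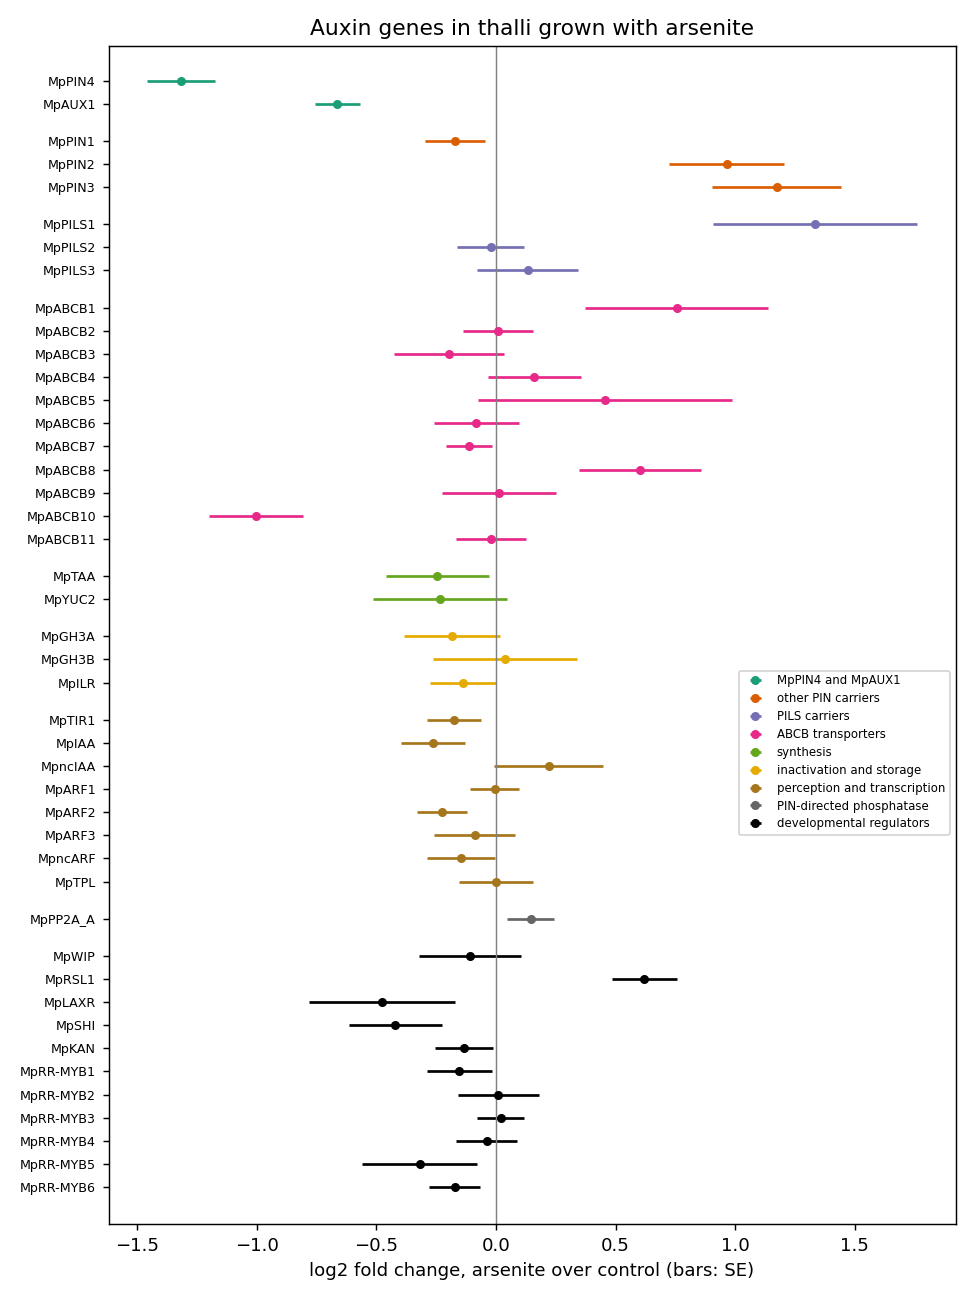
Log2 fold change, arsenite over control, with bars of 1 SE, for MpPIN4, MpAUX1 and the 42 other auxin genes with enough reads, coloured by role. MpPIN4 stands at -1.32, MpABCB10 at -1.003 and MpAUX1 at -0.66, while MpPILS1 stands at 1.33, MpPIN3 at 1.17 and MpPIN2 at 0.97. Of the 17 tested genes among the other PINs, PILS and ABCB, 10 lie above 0 and 7 below. Genes of synthesis, inactivation and perception lie between -0.26 and 0.22.

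Counted together, 47 auxin genes apart from the pair had an ID in the files and 42 had enough reads. Of these 1 fell (MpABCB10), 0 rose and 41 did not pass, so 2.38% were called, against 4.18% of all tested genes. At a raw p below 0.05 stood 6 of the 42 (14.3%), 5 higher and 1 lower, against 21.1% of all tested genes. Their median log2 change was -0.06, with 16 positive and 26 negative, beside a median of -0.004 for the 13544 genes. Arsenite and control libraries did not overlap in 10 of the 42 (23.8%), against 28.2% of all tested genes. DESeq2 called 4 of the 42 (MpPIN2, MpPIN3 and MpRSL1 higher and MpABCB10 lower), and voom called 1, MpABCB10. Over all tested genes DESeq2 called 11.8% and voom 3.92%.

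In RNA of a whole tissue, fewer cells that use a gene and less RNA per cell cannot be told apart, which holds for both carriers. Marker genes of particular cells were therefore read beside them. These lists were made by symbol, and how specific their genes are to the cells named was not checked. Of 5 oil body cell genes, 2 fell (MpSYP12B and MpABCG1), while 2.14% of all tested genes fell. DESeq2 called 3 of the 5, voom called 2, and 3 had a raw p below 0.05. Over all tested genes these shares were 11.8%, 3.92% and 21.1%. MpERF13 was the other gene with a raw p below 0.05 (log2 change -1.08, adjusted p = 0.0805). MpMYB02 and MpC1HDZ had log2 changes of -0.64 and -0.56. The summed level of the 5 was 44.3 to 74.5 CPM in arsenite libraries and 81.5 to 117 CPM in controls. Of 3 genes listed under sperm and antheridium, 2 could be tested and 1 fell, MpBNB, which is not shown here to mark these cells. It had 5 to 9 reads per arsenite library and 41 to 108 per control. DESeq2 and voom called 1 each, and 2 had a raw p below 0.05. The sum of the 3 was 1.39 to 1.84 CPM in arsenite libraries and 3.25 to 5.80 CPM in controls. MpPRM had 1 read, in control replicate 1, and was too low to test in either group. Neither archegonium marker passed with edgeR, DESeq2 or voom (1 had a raw p below 0.05), at sums of 126 to 140 CPM in arsenite libraries and 154 to 179 CPM in controls. Most of these reads fell on MpRKD, and the sum does not show that archegonia were present. Sums over 4 markers of the meristem notch, where auxin is made, overlapped between groups, at 552 to 725 CPM in arsenite libraries and 537 to 669 CPM in controls, and most of these reads fell on MpCLV1. None of the 4 was called by edgeR, DESeq2 or voom. A raw p below 0.05 was found for 1, MpCLE2, at 48.0 ± 15.1 CPM with arsenite and 32.4 ± 2.202 CPM in controls (SD, n = 3 each), with groups that did not overlap. Sums over gemma cup markers overlapped, at 33.4 to 58.5 CPM in arsenite libraries and 34.5 to 41.1 CPM in controls. The sporophyte list summed to 4.80 to 4.95 CPM in arsenite libraries and 5.14 to 7.11 CPM in controls, without overlap and with MpBELL2 at 0 in all libraries. None of its 4 tested members was called by edgeR, DESeq2 or voom. A raw p below 0.05 was found for 2, MpBELL3 and MpBELL4, with log2 changes of -0.9986 and -0.69, while MpBELL5 had a log2 change of 0.64. MpRBCS, by its symbol a small subunit of the carbon-fixing enzyme, was the only gene read for green tissue. It was present in all 6 libraries, at 62.5 to 101 CPM in arsenite libraries and 40.1 to 68.7 CPM in controls. The part of these marker differences in the levels of MpPIN4 and MpAUX1 was not tested.

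Genes with the most similar profile were ranked by Pearson's r of log2 CPM over the 6 libraries, among 10629 other genes with a mean of at least 5 CPM. Because the libraries fall into 2 groups, r includes the difference between treatments, and it is given as a measure of likeness only. The gene closest to MpPIN4 was MpDOXC21 (r = 0.997), by its symbol a dioxygenase, with 12.3 ± 2.88 CPM with arsenite and 33.5 ± 3.08 CPM in controls (SD, n = 3 each). Its arsenite libraries had the order of MpPIN4, with 11.7, 15.5 and 9.80 CPM in replicates 1, 2 and 3. Of the other 4 nearest genes MpC3H32 (r = 0.9915) carries a symbol. The next with a symbol were MpH2A.X.1, a histone variant of DNA repair (r = 0.9885), MpDIR37, a dirigent protein (r = 0.986), and MpUGT24, a glycosyltransferase (r = 0.984). All were lower with arsenite, MpDIR37 at 56.8 ± 3.94 CPM against 132 ± 13 CPM in controls.

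The 5 genes nearest to MpAUX1, with r from 0.995 to 0.997, carry no symbol in the table of names, and the nearest was Mp2g09820, with 47.3 ± 1.58 CPM with arsenite and 80.2 ± 6.09 CPM in controls (SD, n = 3 each). With a symbol, the nearest was the class III peroxidase MpPOD164 (r = 0.994), at 1223 ± 65.2 CPM with arsenite and 2057 ± 174 CPM in controls. It was followed by MpDFR-like18 (r = 0.989), MpGH31.8 (r = 0.987), the ABC transporter MpABCC1 (r = 0.9835) and the aquaporin MpNIP (r = 0.9815). MpNIP had 19.6 ± 2.77 CPM with arsenite and 34.4 ± 3.47 CPM in controls. MpPIN4 and MpAUX1 had r = 0.967 with each other, which placed MpAUX1 at rank 54 for MpPIN4 and MpPIN4 at rank 74 for MpAUX1.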

How the data were processed

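The authors deposited 1 table of whole-number read counts per sample, made with htseq-count on the Galaxy platform per the file names. The choice of aligner, build, annotation, versions and strand setting is not given in the sources used here. Reads of overlapping antisense genes therefore cannot be told apart, and counts of similar paralogs are uncertain. Library totals ran from 26579324 to 47532310 reads. Symbols were matched by locus number to MpTak2_v7.1, where 17671 of 18391 locus tags had a file ID.

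Counts of all genes were fitted with edgeR 4.0.16 in R 4.3.3 (TMM scaling, default low-count filter, quasi-likelihood test, Benjamini-Hochberg adjustment over 13544 genes, threshold 0.05), in groups taken from the sample titles. CPM used TMM-scaled library sizes, and an SE is the log2 change divided by the square root of F. Alternatives were DESeq2 1.42.0, voom in limma 3.58.1, other scalings and filters, a replicate block and leaving out each library. The procedure was tested on simulated data. Libraries of a group differed by more than sampling noise (chi-square per degree of freedom at least 39.4).

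The pair and the lists were chosen with earlier results of these data known. The 8 auxin lists were matched by symbol or synonym. ADP-ribosylation factors, glycoside hydrolases and MpIAR4 genes, which share letters with auxin symbols, were left out, and MpLRL had no ID in the files, which left MpRSL1 as the only rhizoid marker. Named genes were the pair, the carriers, the 3 genes with the smallest p of each other list at a mean of at least 1 CPM, and the 5 most similar profiles per carrier, with and without a symbol required. MpARF1, MpLAXR, MpLEAL6, Mp1g29350, the low YUC genes and the markers named are outside that rule and were picked after their values were seen.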

Additional observations from a re-analysis of the deposited data

How the results depend on the processing

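The log2 changes of MpPIN4 and MpAUX1 kept their sign and moved by less than the SD between replicates, pooled over both groups, in all 13 alternatives, from -1.46 to -1.20 for MpPIN4 and from -0.69 to -0.62 for MpAUX1. The number of called auxin genes was 1 in the main analysis, 4 with DESeq2, 2 with the replicate block (MpPIN3 added, log2 change 1.11, adjusted p = 0.0477) and 0 to 2 when 1 library was left out. Over all genes 566 were called, 1598 with DESeq2, 364 with the replicate block, and 39 to 461 when 1 library was left out, the fewest without arsenite replicate 2. Other scalings, other filters and voom kept both counts within 1.5 times. The 3 other genes whose call changed were MpPIN2 and MpRSL1, gained with DESeq2, and MpABCB10, lost in 5 fits with a library left out, and 38 of the 42 auxin genes kept their side of the threshold in every alternative that tested them. MpPILS1 and MpABCB5 were removed by the stricter low-count filter and so had 12 alternatives. The cause of these shifts was not tested.

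The replicate numbers were not taken as pairs: deviations from the group means correlated at 0.01, -0.11 and 0.19 for numbers 1, 2 and 3, and 1 of 6 samples correlated best with its own number. Depth limits MpPIN5, MpPILS1, MpLEAL6, Mp1g29350, MpBNB and the YUC genes other than MpYUC2. Groups of 3 leave intervals that do not exclude modest changes in the genes that did not pass. For some of these genes larger changes are not excluded either. Examples are MpABCB1 (95% interval of the log2 change -0.15 to 1.66) and MpLAXR (-1.20 to 0.24).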
